A study of Mus musculus with 8 samples.

Results

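The regions described here were 234 stretches of mouse chromatin that left the nuclear lamina when preadipocytes became adipocytes, and that were found at the lamina again when Tmem120a alone was knocked down, but not when Tmem120a and Tmem120b were knocked down together. They were 234 of the 2021 released regions deposited for the study, where released means listed in a lamina-associated domain (LAD) of preadipocytes and not of adipocytes. A released region was a member if at least 50% of its length lay in LADs of the Tmem120a knockdown and less than 50% in LADs of the double knockdown. The members were therefore selected on the LAD lists of these same 4 conditions, and their overlaps with those lists are given as a description with no test.

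The cells were 3T3-L1, an established mouse line of preadipocytes that is differentiated to adipocytes in culture. Lamina contacts were mapped by DamID, in which a bacterial adenine methylase (Dam) fused to lamin B1 marks the DNA it meets, and freely diffusing Dam serves as the control. The 8 libraries comprised 1 LaminB1-Dam and 1 Dam library for each of 4 conditions, which were untreated undifferentiated preadipocytes at day 0, adipocytes at day 9 of differentiation carrying a control non-target shRNA, day 9 adipocytes carrying Tmem120a shRNA, and day 9 adipocytes carrying Tmem120a/b shRNA. The Dam constructs were brought in by lentivirus, at day 6 for the 3 adipocyte conditions, so that only the preadipocytes lacked both an shRNA and the differentiation medium. No condition had a second culture, and the files gave LADs as intervals without a score or read depth, so no difference between conditions could be set against replicate error and the knockdown levels were not among the data used here.

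LADs are long stretches of mostly silent chromatin that lie against the lamina lining the inner nuclear membrane. Their positions are partly specific to the cell type, and genes that leave the lamina in differentiation can become easier to express, while many others move without a change in expression. Tmem120a is a transmembrane protein of the nuclear envelope that is abundant in fat, and Tmem120b is its paralog, and the study asked which regions depend on them for their position and how far the paralogs act on the same loci.

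Because Dam methylates the adenine in GATC, and the enzyme DpnI cuts only the methylated site, LAD borders can be placed no more finely than the spacing of GATC sites. Of the listed borders of released regions, 99.8% lay at such a site in the mm9 genome. The borders of 3 members are printed here as 60-base windows of the mm9 plus strand, with the GATC in capitals, to show where DamID placed the edge of the region that moved. These are the longest member, which was a whole preadipocyte LAD across Phactr2, the longest member that lay entirely in a single-knockdown LAD and in no double-knockdown LAD, at Mtus2, and the member that held Fh1.

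Phactr2 region, left border (chr10:12934738-12934797, an intron of Phactr2): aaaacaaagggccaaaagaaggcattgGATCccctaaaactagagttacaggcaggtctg
Phactr2 region, right border (chr10:13213851-13213910, outside protein-coding genes): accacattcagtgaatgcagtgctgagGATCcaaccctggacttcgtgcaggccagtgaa
Mtus2 region, left border (chr5:148720673-148720732, outside protein-coding genes): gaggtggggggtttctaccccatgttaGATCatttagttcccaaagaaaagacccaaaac
Mtus2 region, right border (chr5:148795751-148795810, an intron of Mtus2): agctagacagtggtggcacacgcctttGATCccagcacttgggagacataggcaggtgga
Fh1 region, left border (chr1:177512362-177512421, outside protein-coding genes): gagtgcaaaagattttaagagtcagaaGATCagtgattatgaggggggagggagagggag
Fh1 region, right border (chr1:177572301-177572360, an intron of Kmo): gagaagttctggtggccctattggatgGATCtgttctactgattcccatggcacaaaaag

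Each of the 6 windows held 1 GATC, at the listed border. The outer edges had different origins. Both borders of the Phactr2 region were ends of a preadipocyte LAD, both borders of the Fh1 region were ends of adipocyte LADs, and the Mtus2 region had a preadipocyte LAD end on its left and an adipocyte LAD end on its right. The Phactr2 region thus was a domain of its own, the Mtus2 region the edge of a larger domain, and the Fh1 region a stretch opened up within one.

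The overlap with the 2 knockdown lists was examined first. Over all 2021 released regions, 721 (35.7%) lay in LADs of the Tmem120a knockdown by the 50% rule and 944 (46.7%) in those of the double knockdown. Members were 11.6% of the released regions and 32.5% of the 721. A further 487 released regions lay in LADs of both knockdowns, 457 in those of the double knockdown only and 843 in neither. Members were thus the smallest of the 4 groups, and the group in LADs of the double knockdown only was larger. Below, back in a knockdown means in its LADs by the 50% rule. The lists cannot tell a return from a region that never left.

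Members covered 10.5 Mb of the 103 Mb of released chromatin. Their median share of length in single-knockdown LADs was 82.6% (quartiles 66.0 and 100%), and their median share in double-knockdown LADs was 0% (quartiles 0 and 32.9%). No double-knockdown LAD met 121 members, and 74 members lay in a single-knockdown LAD over their whole length. Both held for 43 members (18.4%). A wide margin, with at least 80% in the single and at most 20% in the double knockdown, was seen in 93 members (39.7%), and these are called clear members below. At the other end, 12 members differed by less than 20 percentage points between the knockdowns, 40 lay between 50 and 60% in the single knockdown and 35 between 40 and 50% in the double knockdown.

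**Figure D1:**
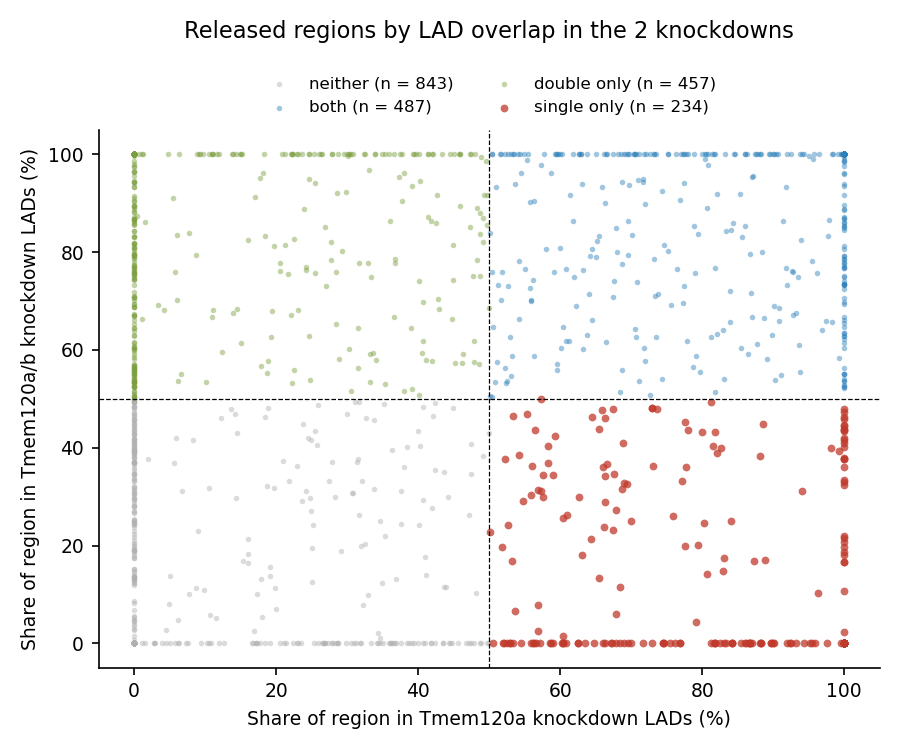
Each point is 1 of the 2021 released regions, placed by the share of its length (%) in LADs of the Tmem120a knockdown (horizontal) and of the Tmem120a/b knockdown (vertical), with dashed lines at 50%. The 234 members fill the lower right field by construction, with 121 on the floor at 0% and 74 on the right wall at 100%, and a scatter of others running up to both dashed lines.

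The members nearest the line show how narrow it was. The member closest to 50% in the single knockdown, a region of 33.2 kb at chr19:22094711-22127861, had 50.1% there and 22.8% in the double knockdown. The region just outside, 27.5 kb at chr4:3938510-3965993 across the start of Sdr16c5, had 49.98% and 0% in the double knockdown. The member closest to 50% in the double knockdown was 113 kb at chr5:106868500-106981799, across Barhl2 and the end of Zfp644, with 57.4% in the single and 49.98% in the double knockdown. The region just beyond, 22.2 kb at chr7:121796276-121818520, had 50.4% in each list and was not a member.

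The knockdown lists differed from the others in the number of LADs as well as in their places. They held 5723 LADs for the single and 6971 for the double knockdown, with medians of 59.1 and 60.7 kb, against 2542 LADs with a median of 103 kb in adipocytes and 3914 with a median of 83.2 kb in preadipocytes. The part of this finer division in the membership of a region was not tested. Within members the single-knockdown cover was seldom broken, since 211 of 234 members (90.2%) met 1 single-knockdown LAD and 23 met 2 or more.

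The length of members was then compared with that of the other released regions. Members ran from 8.43 to 279 kb with a median of 32.8 kb (quartiles 21.5 and 60.1 kb). The medians were 39.2 kb for regions in LADs of both knockdowns, 36.8 kb for the double knockdown only and 38.6 kb for neither. The quartiles of the 4 groups overlapped over most of their range. Length varied with how sharply a member differed between the knockdowns, as the 43 members that were all in the single and not at all in the double knockdown had a median of 18.4 kb (8.43 to 75.1 kb). The 113 members with some double-knockdown LAD had a median of 50.1 kb, and the 121 with none 25.8 kb. These splits use the same overlaps that chose the members, and a short region is more easily wholly inside or outside a LAD. The differences in length are therefore a description only.

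To see where members lay in the LAD landscape, each was placed against stretches that preadipocyte and adipocyte LADs shared, here called common LADs. Of the members, 137 touched a common LAD (58.5%, 95% Wilson interval 52.1 to 64.7), with 103 touching on 1 side and 34 on both. The other 97 (41.5%, 35.3 to 47.9) were whole preadipocyte LADs with no overlap in adipocytes. The share of whole LADs was 13.7% when only LADs of at least 100 kb were kept in all 4 lists. That setting also removed the shorter preadipocyte LADs that were themselves members. A member whose own preadipocyte LAD was removed counted as not whole, so the lower share does not show a dependence on LAD length. The share touching a common LAD was 72.9% (68.8 to 76.7) for regions back in both knockdowns, 56.02% (51.4 to 60.5) for the double knockdown only and 38.2% (35.0 to 41.5) for neither. Members thus lay between the both and neither groups, and their interval overlapped that of the double knockdown only. These intervals cover counting error over regions, and neighbouring regions are not independent.

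**Figure D2:**
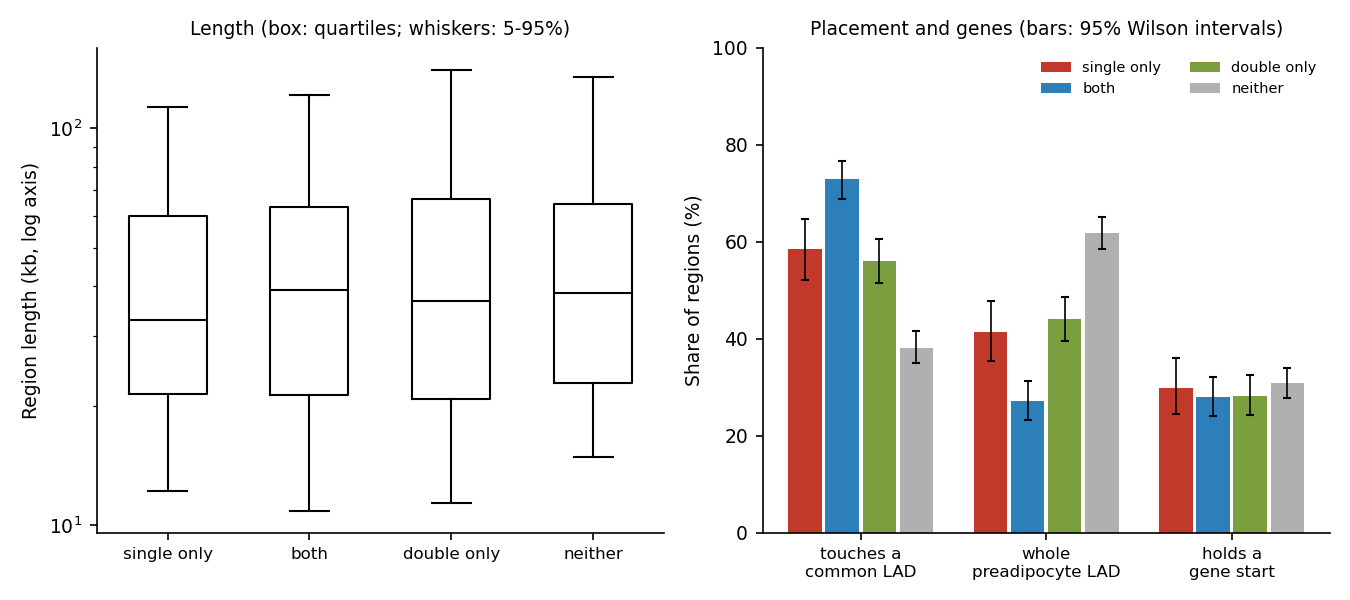
Left, region length (kb, log axis) of the 4 groups of released regions, where boxes give the median and quartiles and whiskers the 5th and 95th percentiles; right, the share of each group (%) that touched a common LAD, was a whole preadipocyte LAD or held the start of a protein-coding gene, with 95% Wilson intervals. Members (red) had a median of 32.8 kb, with 58.5% touching a common LAD and 41.5% being a whole preadipocyte LAD, close to the double knockdown only group (green) in both.

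The 103 members at 1 side of a common LAD are edges of larger domains, and the LADs of each list were followed across them. In the single knockdown, a LAD ran without a break from the common LAD into the member at 88 of the 103 (85.4%), and at 32 of them it ran on past the member's outer border. In the double knockdown a LAD crossed the inner border at 42 (40.8%) and reached a median of 8.39 kb into the member. None of the 42 ran past the outer border, which the rule forbids. Single-knockdown LADs reached a median of 25.6 kb into the member.

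The knockdowns also differed in the nearest part of the common LAD. In the 20 kb of common LAD beside these members, the mean share in LADs was 99.6% in adipocytes, 78.4% in the single knockdown and 56.9% in the double knockdown. The order varied deeper in the domain, with 70.1 and 70.5% at 22.5 kb from the border, 67.4 and 74.1% at 52.5 kb and 68.1 and 66.3% at 92.5 kb. At regions back in the double knockdown only, the same 20 kb gave the reverse order, with 55.9% in the single and 85.0% in the double knockdown. At regions back in both the shares were 83.5 and 91.1%, and at regions back in neither 41.0 and 44.4%. On the other side, in the 50 kb beyond the outer border, the single knockdown had 23.98% of the length in LADs, against 10.3% in preadipocytes, 3.56% in adipocytes and 18.3% in the double knockdown. Here too the order turned with distance, from 41.7% in the single and 12.3% in the double knockdown at 2.5 kb to 14.5 and 23.9% at 47.5 kb. A LAD continues over neighbouring sequence, so these flanks are not independent of the overlap that chose the members.

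**Figure D3:**
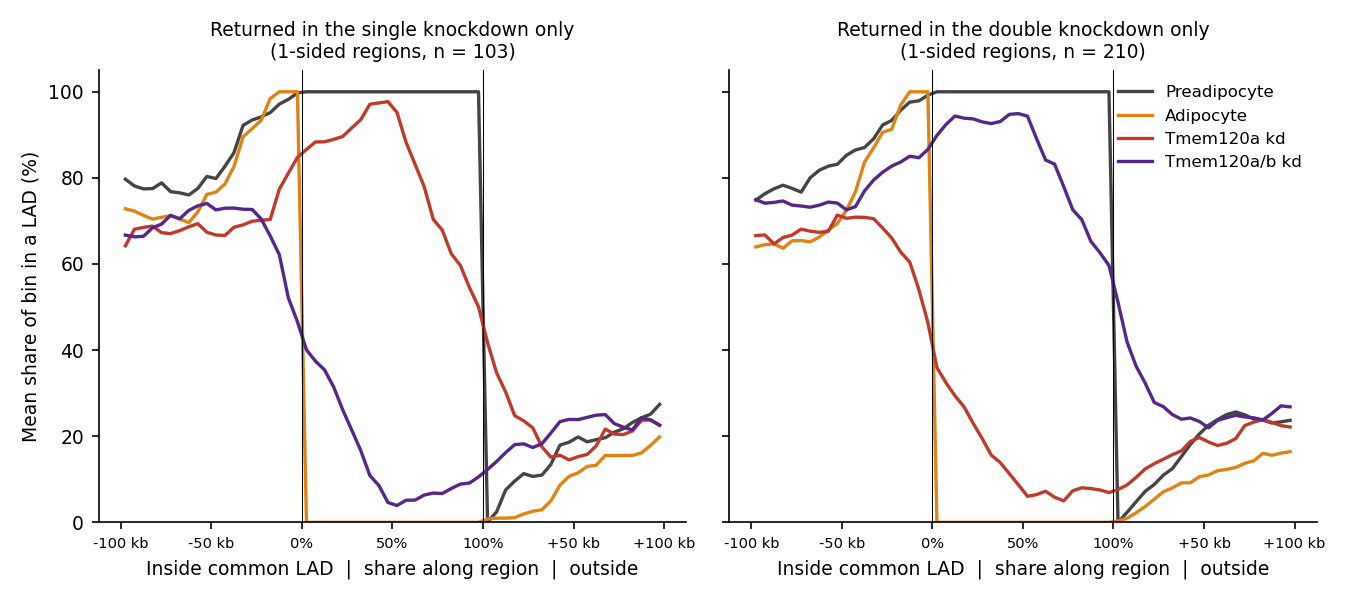
Mean share (%) of each bin in a LAD for regions at 1 side of a common LAD, aligned from the common LAD (left) through the region (scaled to 100%) to the chromatin outside (right), in each of the 4 lists; left panel, the 103 members, right panel, the 210 regions back in the double knockdown only. In members the single-knockdown line (red) stays at 97.7% near the middle of the region and falls to 50.1% at the outer border, the double-knockdown line (purple) starts at 40.1% and falls to 3.90% just past the middle, and the right panel shows the lines exchanged.

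Within the 1-sided members the single-knockdown cover was not uniform. The mean share was 86.6% in the first of 20 equal bins of the region beside the common LAD, 97.7% near the middle and 50.1% in the last. The double-knockdown cover was 40.1% next to the common LAD, 3.90% just past the middle and 10.5% at the outer border. The high and the low value near the middle follow from the rule, since an unbroken LAD over at least 50% of a region takes in its midpoint and one that enters from an edge and covers less does not. The fall to the outer border was also seen in the other groups, from 96.1 to 58.8% in the single knockdown for regions back in both and from 94.9 to 59.7% in the double knockdown for regions back in that one only.

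The 97 members that were whole preadipocyte LADs did not border on an adipocyte LAD within that domain. In 86 of them the single-knockdown LAD was also separate from every adipocyte LAD, so that a domain that adipocytes lacked was present. That LAD lay wholly inside the old preadipocyte borders in 18 and went past both borders in 19. A double-knockdown LAD met 47 of the 97 in part, and in 13 it lay wholly inside. These members had a median length of 37.5 kb, with a median of 76.9% of the length in the single knockdown and 0% in the double knockdown.

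The 34 members with a common LAD on both sides were breaks within a domain. They had a median of 100% of the length in the single knockdown and 0% in the double knockdown, and the nearest double-knockdown LAD lay a median of 1.98 kb away. Among the 43 members all in the single and not at all in the double knockdown, 12 were such breaks, 20 were 1-sided edges and 11 whole preadipocyte LADs, and 32 had a double-knockdown LAD within 20 kb. Across all members, 24 lay over 100 kb from any double-knockdown LAD.

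The longest members were of mixed cover. The longest, 279 kb at chr10:12934768-13213880, spanned nearly all of Phactr2, which encodes a regulator of protein phosphatase 1 and actin. It was 100% LAD in preadipocytes, 0% in adipocytes, 65.5% in the single and 43.8% in the double knockdown. The next, 187 kb at chrX:101280547-101467790 over C77370, had 66.3% and 28.9% in the single and double knockdowns. A region of 154 kb at chrX:155524891-155679107 reached into Rps6ka3, which encodes the kinase RSK2, with 100% and 41.0%. A region of 138 kb at chr9:120121602-120259631 held the start of Myrip, which links Rab27a to myosins, with 81.8% and 43.2%. The fifth, 137 kb at chr11:64329612-64466322, met the 3′ end of Hs3st3a1, a heparan sulfate sulfotransferase, with 73.1% and 36.4%. Of these 5, the Rps6ka3 region alone lay wholly in a single-knockdown LAD, and all of them had part of the length, from 28.9 to 43.8%, in LADs of the double knockdown. The gene bodies could differ from the regions. Those of Phactr2, Rps6ka3 and Hs3st3a1 had more in single-knockdown LADs. The Myrip body had 12.6% in the single and 60.0% in the double knockdown, and the C77370 body 44.6 and 46.6%.

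The 5 longest members that were wholly in a single-knockdown LAD and free of double-knockdown LADs were shorter, from 35.0 to 75.1 kb. The longest lay at chr5:148720703-148795780 and held the start of Mtus2, which encodes a microtubule-associated protein. The others were 39.3 kb at chr19:3148502-3187789, 38.1 kb at chr11:114396775-114434894, 35.7 kb at chr16:51754105-51789758 and 35.0 kb at chr4:14360347-14395351, and none of these 4 met a protein-coding gene. In all 5 a double-knockdown LAD ended 2.70 to 5.47 kb from the member.

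**Figure D4:**
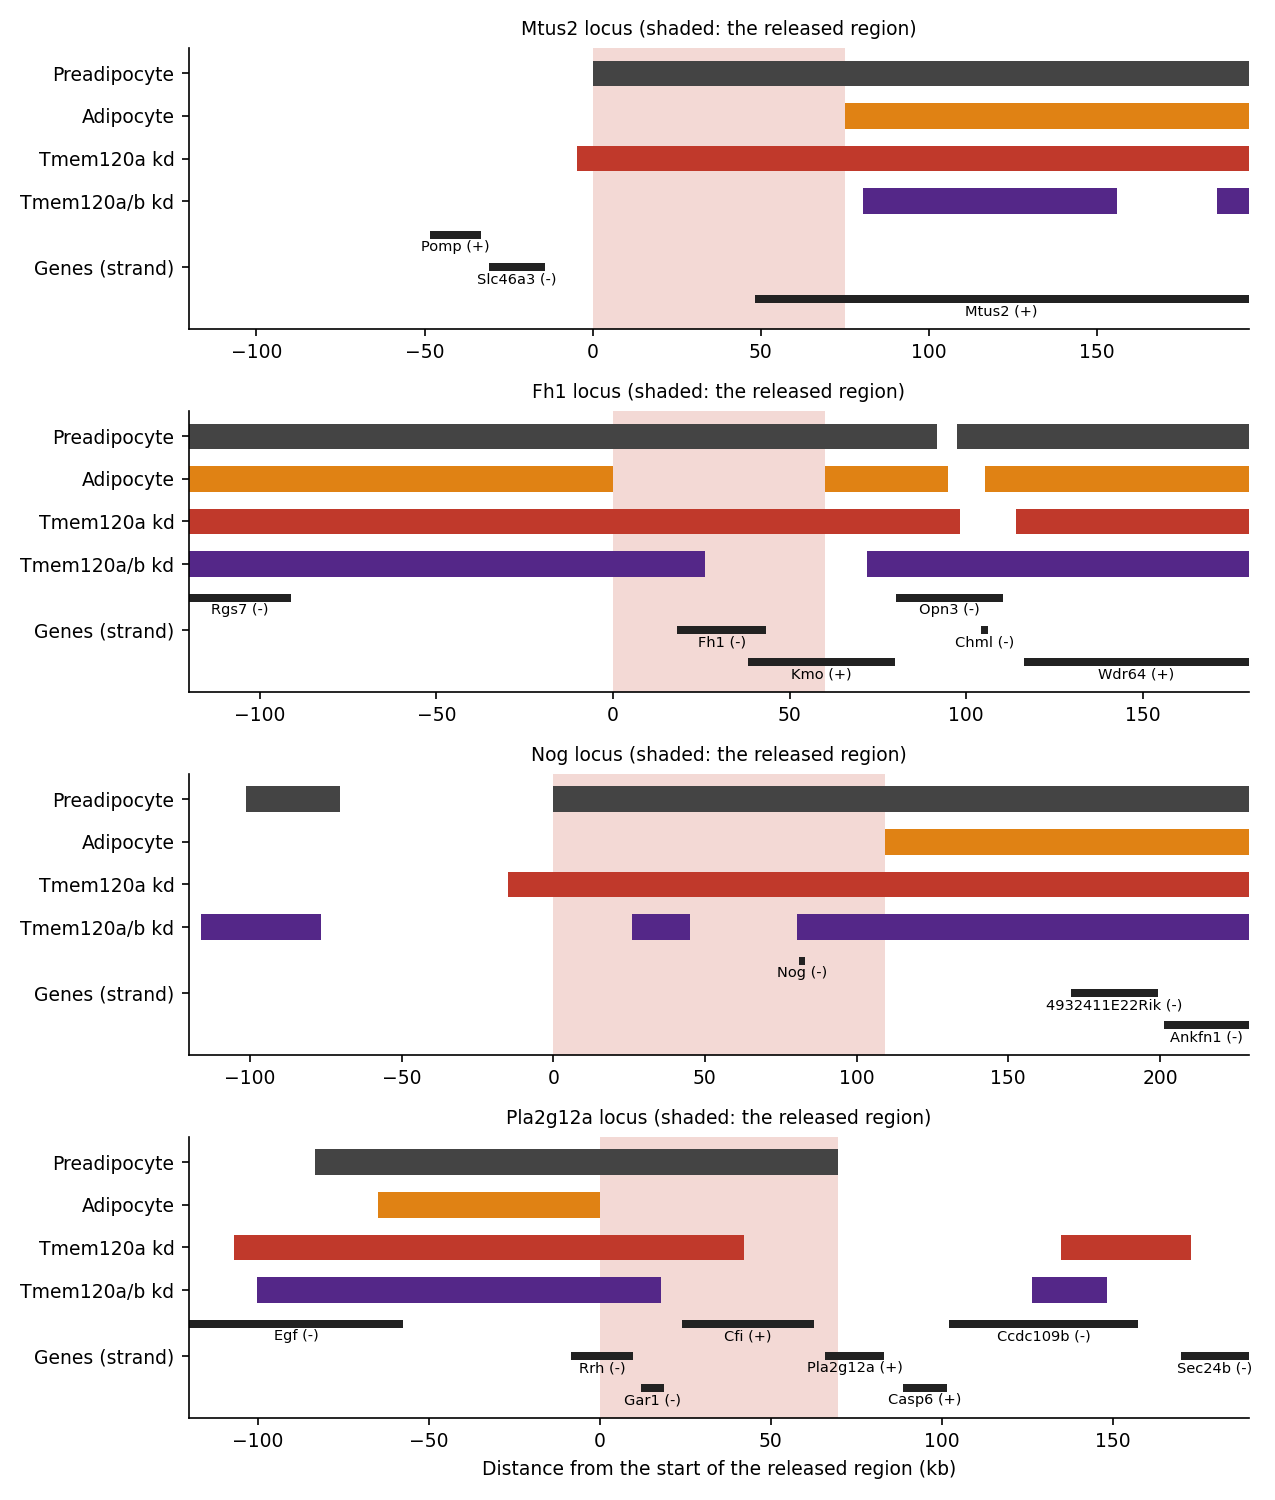
LADs of the 4 lists (bars) and protein-coding genes with strand (black) around 4 members, by distance (kb) from the start of the member, which is shaded. The single-knockdown LAD covers the Mtus2, Fh1 and Nog members fully and the Pla2g12a member in 60.4%, while the double-knockdown LAD stays 5.47 kb off the Mtus2 member and covers 43.7%, 43.8% and 25.7% of the other 3.

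Members met 165 protein-coding genes, in 135 of the 234 regions, and held the starts of 85. A further 80 members (34.2%) met no annotated gene of any kind. Of the members' length, 60.8% lay outside genes, 36.8% in introns and 2.35% in exons. Gene starts came at 8.10 per Mb of member, against 7.603 per Mb over all released regions and 8.42 per Mb of the genome, so the density of starts was close to both. The share of members with a gene start was 29.9% (24.4 to 36.1), and over all released regions 29.4% (27.5 to 31.5).

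Whether the gene itself followed its region was asked at the start site. Of the 85 starts in members, 46 lay in a LAD of the single and not of the double knockdown, 10 in LADs of both, 3 in one of the double knockdown only and 26 in neither. The class of the region therefore held for 54.1% of the starts within it, against 89 of 785 starts (11.3%) in that state over all released regions, a contrast that the choice of members fixes in part. At regions back in the double knockdown only, 132 of 185 starts (71.4%) lay in a LAD of that knockdown alone. Of the 165 genes, 111 had more of the gene body in single-knockdown LADs, 30 had more in double-knockdown LADs and 24 had equal shares. Over all 1288 genes that met a released region these numbers were 295, 534 and 459, members included.

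Genes of metabolism were examined by name, since the study discussed 6 genes for release from the lamina. Fh1 and Pla2g12a met members. Fh1 encodes fumarate hydratase, an enzyme of the citric acid cycle, and lay on the minus strand at chr1:177530505-177555766, inside a member of 59.9 kb (chr1:177512392-177572330) that it shared with Kmo, which encodes kynurenine 3-monooxygenase. The Fh1 gene body was 100% LAD in preadipocytes, 0% in adipocytes, 100% in the single and 31.9% in the double knockdown. The double-knockdown LAD covered the 3′ part of the gene and stopped 17.2 kb short of its start, so the start lay in a LAD in the single knockdown and outside one in the double knockdown. The lists mark only whether a stretch was called a LAD, and the strength of the DamID signal within a gene was not analysed here. The member was a break in a domain with a common LAD on either side, and 43.7% of it was LAD in the double knockdown, so that it left the group when 20% overlap was enough to count as being in a LAD.

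Pla2g12a encodes a secreted phospholipase A2, and its values went against the class of its region. The member, 69.7 kb at chr3:129515645-129585323, had 60.4% in the single and 25.7% in the double knockdown. Pla2g12a, at chr3:129581524-129598739, began just inside the outer border, with 22.1% of the gene body in preadipocyte LADs and 0% in the other 3 lists. Its start lay 23.8 kb from a single-knockdown LAD and 48.0 kb from a double-knockdown LAD. The single-knockdown LAD covered the opposite end of the member, with Rrh, the retinal protein peropsin, and Gar1, a protein of H/ACA ribonucleoproteins, at 100%. Both genes were also covered in the double knockdown, Rrh at 100% and Gar1 at 88.0%. Cfi, which encodes complement factor I, had 46.8% of its body in that LAD and 0% in one of the double knockdown.

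The other 4 genes met released regions of other groups. Parm1 and Jazf1 met regions back in both knockdowns, Sema3c one back in the double knockdown only, and Ak4 one back in the double knockdown only and one back in neither.

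Nog encodes noggin, a secreted antagonist of bone morphogenetic proteins, and shows how a gene can depart from its region. Its member, 109 kb at chr11:89080880-89190100, had 100% in the single and 43.8% in the double knockdown, but the short gene was 100% LAD in both. The double-knockdown LAD reached from the common LAD into the member far enough to take in the gene. Csf2ra, the alpha subunit of the GM-CSF receptor, lay within a clear member of 60.6 kb with 87.2% in the single and 16.9% in the double knockdown, yet its body was 0% and 100% in these lists. It was the only one of the 31 genes wholly inside a member to be absent from the single-knockdown LADs and present in those of the double knockdown.

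**Figure D5:**
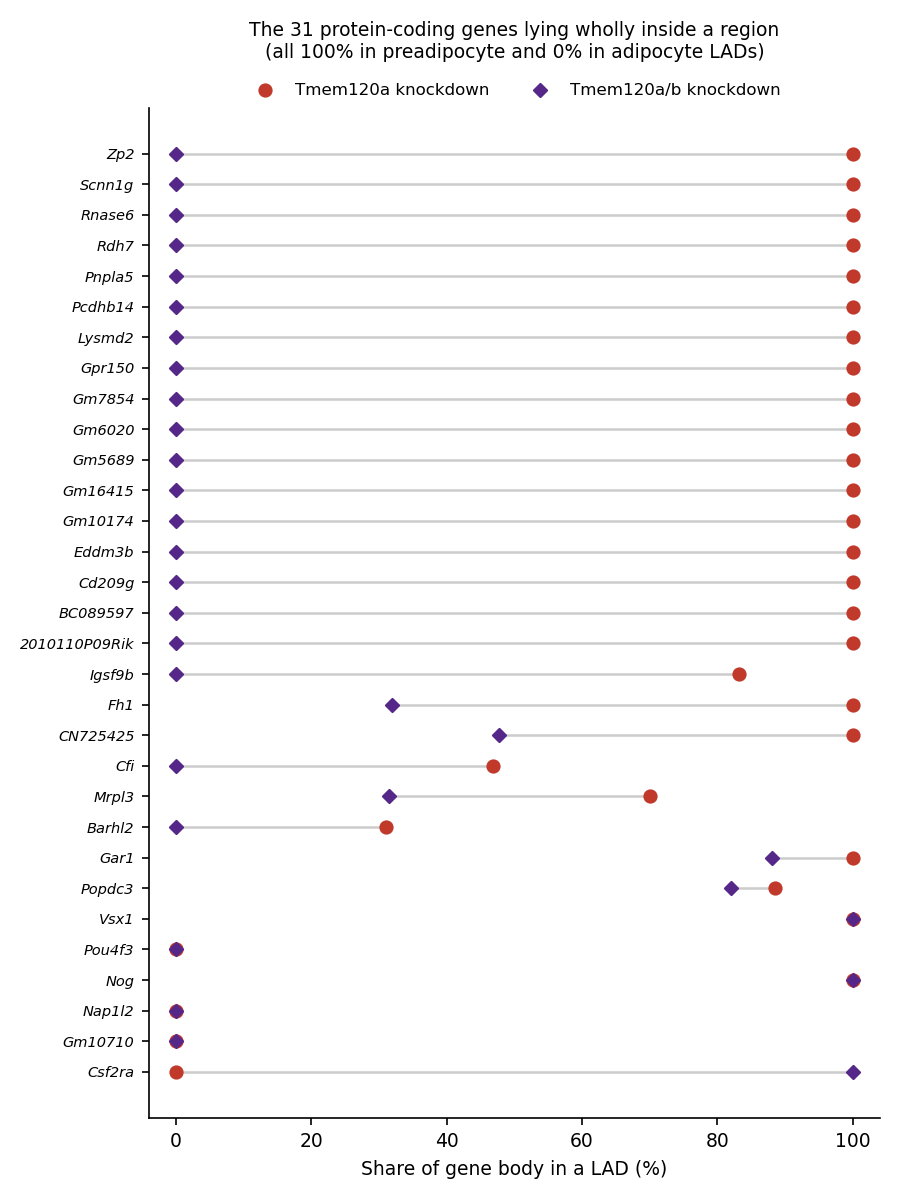
Share of the gene body (%) in LADs of the Tmem120a knockdown (red circles) and the Tmem120a/b knockdown (purple diamonds) for the 31 protein-coding genes wholly inside a member. The top 17 genes stand at 100% in the single and 0% in the double knockdown, Nog and Vsx1 at 100% in both, Gm10710, Nap1l2 and Pou4f3 at 0% in both, and Csf2ra alone has the reverse. The rule that chose the members fixes this pattern in part.

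Of those 31 genes, 22 were entirely in single-knockdown LADs, 23 were free of double-knockdown LADs and 17 were both. The members were chosen by the same overlaps, so the rule fixes these counts in part, and they are a description only. The 17 included Scnn1g, which encodes the gamma subunit of the epithelial sodium channel, Rdh7, a retinol dehydrogenase, Pnpla5, a patatin-like lipase of lipid droplets, Zp2, a protein of the egg coat, Rnase6, a secreted ribonuclease, Pcdhb14, a protocadherin, and Cd209g, a C-type lectin. Reads in Pcdhb14 and Cd209g, which have close paralogs nearby, could have been assigned less surely. Outside the 17, the transcription factor genes Vsx1, Pou4f3 and Barhl2 had values of their own. Vsx1 was 100% in both knockdowns, Pou4f3 was 0% in both, and Barhl2 was 31.1% in the single and 0% in the double knockdown. Crx, a retinal transcription factor that met a member with part of its body, was 53.8% in the single and 0% in the double knockdown. Mrpl3, a protein of the mitochondrial ribosome, had 70.0 and 31.5% in the single and double knockdowns.

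Clear members held the starts of 22 genes, and 20 of these starts lay in a single-knockdown and not in a double-knockdown LAD. Over all released regions 89 of 785 starts (11.3%) were in that state. The definition of a clear member largely fixes this count, which is a description only. Scnn1g lay in a whole preadipocyte LAD of 68.9 kb at chr7:128865880-128934747, with 90.1% in the single and 0% in the double knockdown, and its start was 119 kb from the nearest double-knockdown LAD. Rdh7 and BC089597 lay in a member of 36.3 kb at chr10:127296688-127332940, with 84.2% and 0%, and the nearest double-knockdown LAD was 837 kb from that member. Flt4, the VEGF-C receptor of lymphatic vessels, started in a member of 19.9 kb with 100% and 0.156%. Smc2, a condensin subunit, started in one of 17.6 kb with 100% and 0%, as did Sytl4, the exocytosis protein granuphilin, in one of 18.4 kb. Igsf9b, an adhesion protein of inhibitory synapses, and Csf2ra were the 2 starts that lay outside single-knockdown LADs, at 4.38 and 5.402 kb.

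The others of the 22 were Mtus2, Tmem150c, Sel1l3, Zp2, Zfp704, Adrbk2, Cpeb2, Eddm3b, Rnase6, Pcdhb14, Crlf2 and the predicted genes Gm6020, Gm5689 and Gm7854. Adrbk2, which encodes a kinase of G-protein-coupled receptors, had 1.30% of its body in the member and Mtus2 had 7.49%. Shares were also low for Cpeb2 (3.99%), Flt4 (6.15%), Zfp704 (6.63%) and Smc2 (8.43%). For these genes the region concerned the start and little of the gene. The Smc2 body was 10.7% LAD in preadipocytes and 52.1% in adipocytes, so the gene as a whole was not released. Nos1ap, an adaptor of neuronal nitric oxide synthase, was divided further. Its start lay in a member of 36.2 kb with 69.9% in the single and 0% in the double knockdown, while other parts of the gene lay in a region back in both and one back in the double knockdown only.

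The 200 bases before the starts of Fh1 and Scnn1g are shown, since both starts lay in a LAD of the single and not of the double knockdown. They are read 5′ to 3′ on the strand of the gene in mm9, with GATC in capitals.

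Fh1 upstream (chr1:177555767-177555966, minus strand): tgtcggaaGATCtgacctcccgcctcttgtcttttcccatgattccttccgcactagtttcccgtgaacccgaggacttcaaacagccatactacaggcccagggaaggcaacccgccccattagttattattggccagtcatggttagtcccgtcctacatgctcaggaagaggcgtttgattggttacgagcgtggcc
Scnn1g upstream (chr7:128877793-128877992, plus strand): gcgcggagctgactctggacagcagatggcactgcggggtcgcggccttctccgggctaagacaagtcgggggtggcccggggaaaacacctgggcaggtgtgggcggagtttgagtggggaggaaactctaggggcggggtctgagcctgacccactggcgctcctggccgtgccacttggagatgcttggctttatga

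The GC content of these windows was 53.5% for Fh1 and 65% for Scnn1g, with 10 and 12 CpG dinucleotides. The Fh1 window held 1 GATC, read on either strand since the site is its own complement, and the Scnn1g window held none, so that a LAD call at that start rests on sites farther away. Of the windows before the 85 gene starts in members 28.2% held a GATC, and of those before all 22367 protein-coding genes 32.9% did.

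Gene families and pathways were followed with 25 lists, of which 10 had a gene in a member. Among 24 citric acid cycle enzymes, Fh1 was the member gene and 1 other met a released region. Among 334 solute carriers, 34 met released regions and 5 met members, namely the thiamine transporter Slc19a3, the monocarboxylate transporter Slc16a6, the nucleoside transporter Slc28a3, the myo-inositol transporter Slc2a13 and the mitochondrial outer membrane protein Slc25a46. Slc19a3 was 100% LAD in the single and 0% in the double knockdown, Slc25a46 94.7% and 0%, and Slc16a6 0% in both. Slc28a3 and Slc2a13 had more of the gene in the double knockdown, at 87.9 and 80.3%, than in the single, at 35.4 and 45.1%. For Slc25a46 and Slc28a3 this cover went beyond that of preadipocytes, where they were 4.70 and 6.54% LAD. In adipocytes Slc19a3 was already 54.7% LAD and Slc2a13 40.7%. The list took only symbols of the form Slc, number, a or o and number, and so left out Slc35f3. That gene started in a member of 62.9 kb and was 82.7% LAD in the single and 47.2% in the double knockdown. Its start lay in a LAD of the double knockdown only, 7.62 kb from one of the single knockdown.

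Of 6 interleukin and interferon genes in released regions, Il19 and Il1rn met members. Il1rn, the interleukin 1 receptor antagonist, was 100% in the single and 16.5% in the double knockdown, and Il19 was 0% in both. Of 3 cadherins and protocadherins in released regions, Pcdhb14 and Cdh13 met members. Cdh13, T-cadherin, met one with 1.92% of its body, and 52.7% of the body was LAD in the double knockdown against 20.7% in the single. Of 3 muscle genes in released regions, Ttn, the giant sarcomere protein titin, met a member with 5.82% of its body. The rest were Kcnh1 of 10 potassium channel genes in released regions and Olfr649 and Olfr172 of 26 olfactory receptor genes. Of 24 zinc finger genes, Zfp704 and Zfp644 met members. Olfr649 was 0% in both knockdowns and Olfr172 100% in both. Zfp704 was 36.1% in the single and 45.7% in the double knockdown, and Zfp644 19.2 and 32.1%. Kcnh1 was 52.4 and 32.2%, but its start lay in a LAD of the double knockdown only.

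In the list of BMP, activin and TGF-beta genes, Nog met a member while 5 of the 7 in released regions met regions back in the double knockdown only. Of 11 serpin genes in released regions 10 met regions back in both knockdowns and none met a member. None of the genes on the lists of adipogenic transcription factors (23 genes), lipid storage and adipokines (22), fatty acid and triglyceride synthesis (27) and thermogenesis (17) met a member, and 1, 2, 0 and 2 of them met any released region. Over all 1288 protein-coding genes in released regions, 165 (12.8%) met members, 316 (24.5%) regions back in both and 341 (26.5%) regions back in the double knockdown only. Genes of a list can share 1 region and are then not independent, and no list was tested against those shares. Of 116 homeobox genes on their list, 14 met released regions, none met a member and 10 met regions back in neither knockdown. Over all genes in released regions, 566 (43.9%) met regions back in neither, and this difference was not tested. The homeobox list did not hold Barhl2, Vsx1, Pou4f3 and Crx, which met members. The lipid lists did not hold Pnpla5 or the lysophospholipid acyltransferase Mboat2. These names were chosen after the values were seen.

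Of 8 annotated miRNA genes in members, 3 matched the RefSeq miRNA table by name and chromosome, and their hairpins were found at the annotated mm9 loci. Mature sequences were listed for 2 of them. They are printed with the seed, bases 2 to 8, in capitals, since these are the short regulators carried by the members.

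mmu-miR-467h: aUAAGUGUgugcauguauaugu
mmu-miR-672-5p: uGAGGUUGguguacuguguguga
mmu-miR-672-3p: aCACACAGucacuaucuucga

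The 3 seeds differ. Mir467h lay at chr9:115290937-115291057 in a member of 96.1 kb with 79.98% in the single and 43.2% in the double knockdown, and its locus was LAD in the single and not in the double knockdown. Mir672 lay in the 187 kb member over C77370, and its locus was outside LADs in both knockdowns. Mir874, in the gene Klhl3, was likewise in a member and outside LADs of both. Of the other loci, AL672141.1, AC161265.1, AC161265.2 and AL645484.1 were, like Mir467h, 100% LAD in the single and 0% in the double knockdown. AC161265.1 and AC161265.2 lay directly beside Mir467h in the same member, so these loci are not independent cases. AL606479.1 was 0% in both. The 8 loci thus included some that the single-knockdown LAD in their member left uncovered.

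Sequence features that the rule did not use were similar across groups. The median GC content of members was 42.4% (quartiles 39.8 and 44.6%), against 42.4% for regions back in both, 42.7% for the double knockdown only and 41.5% for neither. Members held a median of 2.51 GATC per kb and 87.5 GATC each, with 17 in the poorest. How many of these sites were read is unknown. The other groups had medians of 2.51 to 2.52 GATC per kb. The median of CpG per kb was 8.39 in members and 8.31 over all released regions.

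Members were found on each of the 20 chromosomes with a released region. The share of released regions that were members ran from 5.17% on chromosome 17 (3 of 58, interval 1.77 to 14.1) to 18.2% on chromosome 7 (16 of 88, 11.5 to 27.5). Chromosome 4 held the most, with 22, and chromosome X held 15 of 95. The intervals of the chromosomes at either end of this order overlapped.

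The released regions around members were then counted. A preadipocyte LAD with another released region was shared by 67 members, in 62 such LADs, and those LADs also held 23 regions back in both, 25 back in the double knockdown only and 35 back in neither. More than 1 member was found in 5 of them. Another released region lay within 100 kb of 102 members. Of the 138 such neighbours, 61 (44.2%) were of the neither group, 36 (26.1%) of the both group, 31 (22.5%) of the double knockdown only group and 10 (7.25%) were themselves members. Around all released regions, counted in the same way, these groups made up 42.3, 24.5, 23.3 and 9.79% of the neighbours, so the neighbours of members were close in kind to those of released regions at large. A region recruited to the lamina in adipogenesis lay within 100 kb of 19 members (8.12%), against 9.70% of all released regions. A single preadipocyte domain could thus hold a stretch back in 1 knockdown beside a stretch back in the other.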

How the data were processed

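DamID libraries of 4 conditions were analysed, with 1 LaminB1-Dam and 1 Dam library each. The authors mapped reads to mm9 (BWA per the processing notes), took log2(LaminB1/Dam) per DpnI fragment, called LADs with DNAcopy and listed regions with differential LADs. The deposited files used here were the 4 LAD lists, matched to conditions by the abbreviations in their names, and the released and recruited regions. They hold intervals with no score, so depth is unknown. Starts were read as 0-based and are printed 1-based. The study's methods gave no exact rule for the differential regions.

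Overlaps were computed in Python 3.11.15 with numpy 2.4.6. The interval code was tested on simulated data. Intervals are 95% Wilson (scipy 1.17.1). Genes came from GENCODE vM1 on NCBIM37 (mm9), with gene-level starts, and miRNA sequences from RefSeq (GRCm38.p6). Members and gene lists were chosen with earlier results of these data known. Named were the 5 longest members, the 5 longest wholly in single-knockdown and free of double-knockdown LADs, those nearest 50%, genes meeting these, up to 25 genes starting in clear members (22 found), list genes and 6 genes the study discussed. The Fh1 borders were added. No test between conditions was possible with 1 list per condition. Alternatives were other overlap thresholds, LAD lengths, closed gaps, region sets and no chromosome X.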

Additional observations from a re-analysis of the deposited data

How the results depend on the processing

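Of 91 values under other settings, 66 stayed within 1.5 times the value given above (shares: within its 95% interval) and 25 moved. With at least 80% in the single and under 20% in the double knockdown, there were 93 members, 2.69 Mb and 56 genes, 65.6% touched a common LAD, 34.4% were whole preadipocyte LADs and 100% were clear by construction. With the 80% threshold in place of 50% (at least 80% in the single and under 80% in the double knockdown), 65.2% touched a common LAD, 34.8% were whole LADs and the median double-knockdown share was 37.8%. With LADs of at least 100 kb there were 131 members, 6.01 Mb, 88 genes, 13.7% whole LADs and 64.9% clear. With at least 30 kb, 33.3% were whole LADs. At both lengths a member whose own preadipocyte LAD was removed counted as not whole, so these shares are not comparable with the main one. With gaps under 50 kb closed, 33.6% were whole LADs and 48.6% clear. Released regions of at least 30 kb gave 130 members with a median of 56.4 kb, 109 genes, 50% touching a common LAD and 50% whole LADs, 23.8% clear and a median double-knockdown share of 21.8%. Counting gene starts gave 85 genes. The causes were not tested, other than that stricter settings enter fewer regions.

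Counts hid changes of membership. A 20% threshold gave 227 members, of which 147 were among the 234, an 80% threshold gave 210 with 128, and LADs of at least 100 kb gave 131 with 79. The Mtus2 region met all 10 settings and the Fh1 region 7, failing at 20%, at 80/20 and with gaps under 50 kb closed. The Nog and Pla2g12a regions also met 7, the Phactr2 region 6 and the C77370 region 4. No paired analysis was possible because each condition had 1 list. Depth was unknown, and borders are no finer than GATC sites.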
